A study of Homo sapiens with 4 samples.

Results

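LNCaP cells that carried AR1-651 and were treated with AIL were compared with LNCaP cells that carried the empty vector and were left untreated. LNCaP is a line of human prostate cancer cells that respond to androgen, AR1-651 is the construct that the plasmid carried, and AIL is ailanthone, a natural compound from Ailanthus altissima. All cells were transfected for 24 h, with either the AR1-651 plasmid or the empty plasmid, and were then kept for the next 12 h with or without AIL. The comparison used 2 of the 4 RNA-seq libraries of the study, 1 library per condition, and the other 2, empty vector with AIL and AR1-651 without AIL, are given beside it. Genes entered when they had at least 1 RPKM, a read count scaled to transcript length and to the mapped reads of its library, in at least 1 of the 2 libraries, which held for 14244 of the 19801 genes listed. The measure was the difference in log2(RPKM + 1), which understates the change of genes at low RPKM, and a gene was counted as higher or lower when it was at least 2-fold apart on that scale. With 1 library per condition there was no replicate error and no test, so each difference compares these libraries.

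The prostate-specific antigen gene KLK3, a classical androgen-induced gene, differed between the libraries labelled with and without AR1-651. It was at 287, 303, 1442 and 582 RPKM in the empty vector, AIL, AR1-651 and AR1-651 + AIL libraries, and that order of libraries is kept for every list of 4 values. The library labelled AR1-651 + AIL is called the combined library here.

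Markers fitted a luminal prostate line. All 11 luminal markers reached 1 RPKM, with a sum of 1833 to 4035 RPKM per library. All 7 basal markers were below 1 RPKM in every library, and their sum was 0.870 to 1.97 RPKM. Of the markers of other cells, 8 of 11 neuroendocrine, 6 of 11 stromal and 7 of 9 leukocyte and endothelial genes were below 1 RPKM in all 4 libraries, with sums of 35 to 104, 21.9 to 57.2 and 19.2 to 30.6 RPKM. Ribosomal protein genes held 23%, 22.2%, 32.9% and 25.4% of the summed RPKM, the largest share being that of the AR1-651 library. In bulk RNA, fewer cells of a type and less RNA per cell cannot be told apart.

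Androgen drives luminal differentiation genes in the prostate. Steroid receptors without ligand are held by a chaperone assembly of HSP40, HSP70 and HSP90 with cochaperones such as p23. The study of AIL centres on p23. Stress programs read out other faults in a cell: p53 targets follow DNA damage and nucleolar stress, metallothioneins follow free zinc, the unfolded protein response follows load in the endoplasmic reticulum, and immediate early genes follow kinase signalling and blocked protein synthesis.

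The combined library did not lie at the empty vector baseline. Of the 14244 genes, 1849 (13.0%) were higher and 2304 (16.2%) lower than in the empty vector library, while 10091 (70.8%) were within 2-fold and 6539 (45.9%) within 1.5-fold. The median difference was -0.10 (quartiles -0.71 and 0.56), so the centre of the distribution was close to 0 and its arms were not. Past 4-fold there were 239 genes higher and 337 lower, and past 8-fold 39 and 44. These shares are the background against which every gene list below is read. Over the same genes the median was -0.04 with AIL alone and -0.32 with AR1-651 alone. The list medians of those libraries stand beside these values.

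Over the 14626 genes with at least 1 RPKM in any of the 4 libraries, the combined library was the farthest from the empty vector library. This order holds for differences that keep the trends with length and GC content described below. Removing these trends left 1565 genes higher and 1457 lower for the combined library. The removal was not done for the other pairs, so the order after it was not tested. The 3 comparisons with the empty vector share that library. AIL alone gave 1394 genes higher (9.53%) and 1321 lower (9.03%), AR1-651 alone gave 586 higher (4.01%) and 1701 lower (11.6%), and the combined library gave 1849 higher (12.6%) and 2304 lower (15.8%). The combined library was nearest to the AIL library, from which 214 genes (1.46%) were higher and 517 (3.53%) lower. Against the AR1-651 library, 2184 genes (14.9%) were higher and 839 (5.74%) lower. The median absolute difference told the same order, at 0.32 from the AIL library, 0.50 from the AR1-651 library and 0.63 from the empty vector library.

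Read by function, few genes of most lists were past 2-fold from the AIL library. The small nucleolar and Cajal body RNAs were an exception, with 38 of 134 higher and 21 lower. Of these 134, 56 were listed at 0 in the combined library. Against the AIL library, 0 of 26 unfolded protein response genes were past 2-fold, 0 of 26 p53 targets were higher and 1 lower, 1 of 22 histones was higher and 0 lower, and 1 of 18 fatty acid synthesis genes was higher and 1 lower. Of 19 NF-kappaB targets 2 were higher and 0 lower, and of the 40 androgen-induced genes 6 were higher and 1 lower. Lower genes were 6 of 42 for WNT and Notch, 4 of 34 for immediate early genes, 4 of 62 for chromatin regulators, 3 of 29 for tubulins and actins, 3 of 31 for ERBB, insulin and IGF, and 2 of 20 for prostate lineage, with 0 higher in each of these lists. These counts stand beside the 1.46% and 3.53% of all genes. In lists of this size such shares amount to few genes, so most of the counts set no list apart. Differences between lists were not tested.

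**Figure D1:**
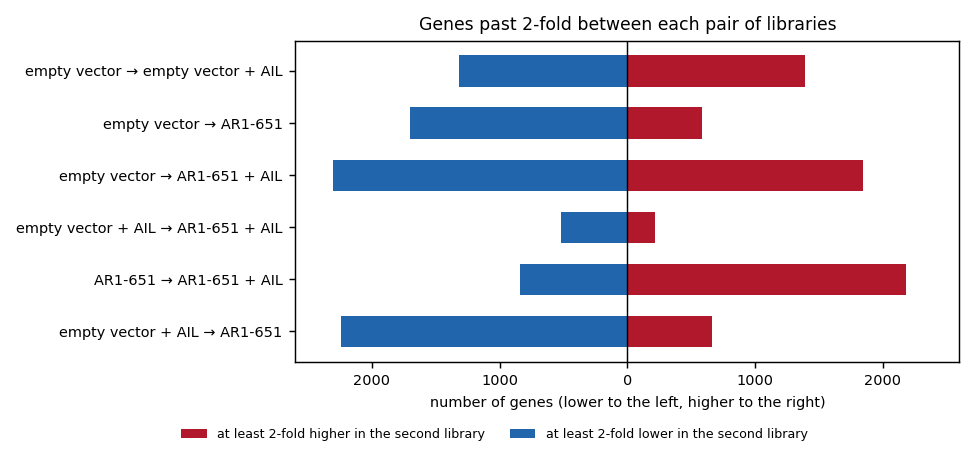
Number of genes at least 2-fold higher (right, red) or lower (left, blue) in the second library of each pair, over 14626 genes with at least 1 RPKM in any library. The pair of the 2 AIL-treated libraries has the shortest bars, 214 and 517 genes, and the empty vector to AR1-651 + AIL pair has 1849 and 2304.

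In the androgen program the combined library lay above the AIL library, with a median difference of 0.44 over 40 genes. The medians of WNT and Notch, immediate early and chromatin genes lay below it, at -0.51, -0.48 and -0.43. The promoters of the best known pair of androgen-induced genes are shown first. The sequences are the 250 bases before the start of KLK3 and KLK2 from RefSeq on GRCh38.p14, at chr19:50854665-50854914 and chr19:50873189-50873438, both on the plus strand, with TGTTCT, the core hexamer of the androgen response element, in capitals on either strand.
KLK3: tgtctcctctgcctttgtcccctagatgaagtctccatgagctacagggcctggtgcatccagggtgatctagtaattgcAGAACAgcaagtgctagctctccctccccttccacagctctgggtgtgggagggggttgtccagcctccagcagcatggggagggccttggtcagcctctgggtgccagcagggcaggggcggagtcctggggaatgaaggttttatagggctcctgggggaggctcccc
KLK2: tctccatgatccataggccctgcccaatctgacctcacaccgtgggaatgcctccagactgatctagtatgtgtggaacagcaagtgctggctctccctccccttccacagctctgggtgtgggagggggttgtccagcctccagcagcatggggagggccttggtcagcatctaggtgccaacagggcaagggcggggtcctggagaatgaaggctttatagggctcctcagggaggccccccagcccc
KLK3 held 1 match, 170 bases before the start, and KLK2 held 0 exact matches in this window. Where KLK3 has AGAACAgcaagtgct, KLK2 has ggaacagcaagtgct, which differs in the first base and was not marked. Of the 10972 compared genes with a promoter, 7.67% had at least 1 match in these 250 bases.

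KLK3 and KLK2, both secreted kallikrein proteases, stayed above baseline in the combined library but well under the AR1-651 library. KLK3, with the values above, rose by 1.02 in the combined library (0.89, under 2-fold, when RPKM was rescaled without ribosomal protein genes) and by 2.33 with AR1-651 alone. KLK2 was at 14.33, 11.55, 198 and 45.39 RPKM, a rise of 1.60 against 3.69 with AR1-651 alone. FKBP5, an HSP90 cochaperone induced by androgen, was at 7.04, 7.29, 62.15 and 19.46 RPKM and rose by 1.35. With AIL alone KLK3, KLK2 and FKBP5 differed from baseline by 0.08, -0.29 and 0.04, and in all 3 genes the combined library stood between the AIL and AR1-651 libraries.

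Other androgen-induced genes parted from these. The elongation factor ELL2 was at 4.43, 13.16, 18.3 and 22.02 RPKM and its partner EAF2 at 5.67, 13.82, 25.53 and 21.08 RPKM. ELL2 was thus higher in each of the 3 other libraries than in the empty vector library, with differences of 1.38, 1.83 and 2.08 for AIL, AR1-651 and both. EAF2 rose by 1.73 in the combined library (0.95 once the trends with length and GC content described below were removed). C1orf116, known as SARG and induced by androgen, was at 13.88, 29.4, 45.77 and 63.77 RPKM and rose by 2.12. STEAP2, a metalloreductase, ended below baseline. It was at 124, 31.41, 51.06 and 43.18 RPKM and fell by 1.5.

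A further 4 genes, picked after their values were seen, ended above, near or below baseline. TMPRSS2, a serine protease, was at 36.71, 16.6, 276 and 65.07 RPKM, and SLC45A3, a sugar transporter, was at 6.21, 2.79, 33.39 and 5.53 RPKM. NCAPD3, a condensin subunit, was at 12.27, 10.47, 47.2 and 12.67 RPKM, so its value lay close to that of the empty vector library. CAMKK2, a calcium-dependent kinase, was at 41.55, 9.68, 72.59 and 12.21 RPKM and fell below it.

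Counted as a list, the 40 androgen-induced genes compared had 8 higher (20%) and 7 lower (17.5%) in the combined library, with a median of 0.14. Their median was 0.80 with AR1-651 alone and -0.30 with AIL alone. Against the AR1-651 library directly, 18 of the 40 were lower and 1 higher, beside 5.74% and 14.9% of all genes, with a median of -0.74. Against the AIL library 6 were higher and 1 lower, beside 1.46% and 3.53% of all genes, with a median of 0.44. SNAI2, a repressor of epithelial genes, counts among the 8 but was listed at 0 in the empty vector library and at 6.8 RPKM in the combined library, so no fold is given.

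Of 11 androgen-repressed genes, 0 rose and 3 fell, with a median of -0.24 (-0.69 with the length and GC trends removed). PRUNE2 fell by 1.97, from 27.77 to 6.34 RPKM, the cholinesterase BCHE fell by 1.44, from 145 to 52.67 RPKM, and the decarboxylase DDC fell by 1.21, from 240.2 to 103 RPKM. The medians of this list were -0.84 with AR1-651 alone and -0.63 with AIL alone.

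Genes of prostate lineage and coregulation were lower by the median, at -0.33 over 20 genes, with 2 higher and 5 lower. HOXB13, a homeobox factor of the prostate, was at 236, 173, 141 and 97.19 RPKM and fell by 1.27. The ETS factor SPDEF was at 84.61, 43.42, 153 and 31.35 RPKM and fell by 1.40. With the length and GC trends removed the differences were -0.70 for HOXB13 and -0.94 for SPDEF, the median of the list was -0.10 and 1 of the 20 was lower. ELF3, an epithelial ETS factor, was at 25.98, 90.98, 20.82 and 71.28 RPKM and rose by 1.42.

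**Figure D2:**
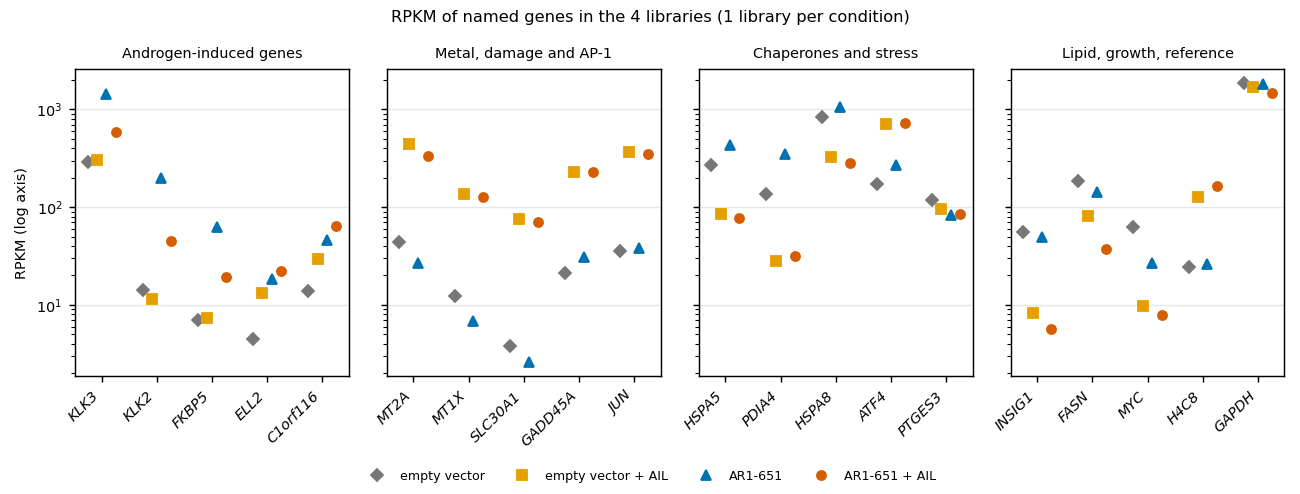
RPKM on a log axis of 20 named genes in the 4 libraries, 1 point per library, with no error bars because each condition has 1 library. KLK3, KLK2 and FKBP5 are highest with AR1-651 alone, whereas for the metal, damage and AP-1 genes the 2 AIL-treated libraries lie together above the other 2.

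The HSP90 chaperones and cochaperones did not move as one. PTGES3, which encodes p23, was at 119.7, 96.8, 83.51 and 84.25 RPKM, a difference of -0.50. With the length and GC trends removed the difference was -1.13, so whether it was past 2-fold depended on that step. Among 22 genes for p23, HSP90 and HSP90 cochaperones, 5 rose (22.7%) and 2 fell (9.09%), with a median of 0.29. STIP1, which bridges HSP70 and HSP90, was at 149, 332, 312 and 386 RPKM and rose by 1.37. The cochaperones TTC4 and BAG1 rose by 1.52 and 1.27, from 13.9 to 41.86 RPKM and from 19.18 to 47.53 RPKM. HDAC6, a deacetylase that acts on HSP90, fell by 1.26, from 24.26 to 9.53 RPKM (-0.56 with the length and GC trends removed). The HSP90 genes themselves, named after their values were seen, were at 609.9, 237, 489.6 and 370.4 RPKM for HSP90AA1 and at 688, 428, 1068 and 499.6 RPKM for HSP90AB1.

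For cytosolic heat shock chaperones, 6 of 31 rose (19.4%), 2 fell (6.45%) and the median was 0.03, which became -0.09 when RPKM was rescaled without ribosomal protein genes. HSPA8, the constitutive HSP70, was at 847, 324, 1059 and 281 RPKM and fell by 1.59. The HSP40 genes DNAJB4 and DNAJA2 rose by 2.26 and 1.75, from 9.25 to 47.97 RPKM and from 39.11 to 134 RPKM. The HSP110 gene HSPA4 rose by 1.31, from 81.67 to 204 RPKM, and the heat shock factor HSF2 by 1.56, from 5.33 to 17.67 RPKM. An abundant chaperone therefore fell while less abundant partners rose.

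Metallothioneins and the zinc exporter showed some of the largest rises, and their promoters are shown because the list is small and known for a shared element. The 250 bases before the start, from RefSeq on GRCh38.p14, are at chr16:56682220-56682469 (plus strand) for MT1X, chr16:56608334-56608583 (plus) for MT2A and chr1:211579162-211579411 (minus) for SLC30A1. Capitals mark TGCNCNC on either strand, a relaxed form of the core of the metal response element.
MT1X: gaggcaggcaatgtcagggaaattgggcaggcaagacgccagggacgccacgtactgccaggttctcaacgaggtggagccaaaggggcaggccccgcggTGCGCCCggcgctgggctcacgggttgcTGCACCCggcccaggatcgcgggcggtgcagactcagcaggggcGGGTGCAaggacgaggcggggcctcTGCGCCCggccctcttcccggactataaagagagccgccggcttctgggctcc
MT2A: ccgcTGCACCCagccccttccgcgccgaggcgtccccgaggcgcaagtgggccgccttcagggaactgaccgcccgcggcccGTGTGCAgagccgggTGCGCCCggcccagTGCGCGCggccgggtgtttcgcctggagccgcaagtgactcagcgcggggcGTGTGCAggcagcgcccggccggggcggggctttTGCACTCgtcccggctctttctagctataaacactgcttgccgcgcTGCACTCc
SLC30A1: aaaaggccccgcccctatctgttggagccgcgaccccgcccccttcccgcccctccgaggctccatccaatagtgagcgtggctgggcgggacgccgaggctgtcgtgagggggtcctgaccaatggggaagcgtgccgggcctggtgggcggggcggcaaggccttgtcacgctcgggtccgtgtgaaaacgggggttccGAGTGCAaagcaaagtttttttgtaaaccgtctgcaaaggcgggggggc
MT1X held 4 matches, MT2A 7 and SLC30A1 1. At least 1 match was present in 55.8% of the 10972 promoters of compared genes in the same 250 bases, at least 4 in 2.01% and at least 7 in 0.0820%.

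MT2A, a zinc-binding metallothionein, was at 44.21, 438, 27.01 and 333 RPKM and rose by 2.89. Its paralogue MT1X was at 12.37, 137, 6.83 and 127 RPKM and rose by 3.26. SLC30A1, the exporter of zinc at the cell surface, was at 3.77, 75.81, 2.58 and 71.16 RPKM and rose by 3.92. Both AIL-treated libraries were high and both untreated ones low for all 3 genes. MT1F was listed at 0 RPKM in the empty vector library and at 23.5 RPKM in the combined library, and reads of near-identical metallothionein genes may be split among them. SLC39A10, a zinc importer, fell by 1.06, from 11.19 to 4.84 RPKM. Of the 6 genes of this list 4 rose and 1 fell, and without MT1F the median was 2.89.

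Most p53 targets were high in both AIL-treated libraries. Of 26 compared, 15 rose (57.7%) and 1 fell (3.85%), with a median of 1.31 against -0.10 for all genes. The medians were 1.43 with AIL alone and -0.41 with AR1-651 alone, where all genes had medians of -0.04 and -0.32. GADD45A, a growth arrest gene, was at 21.33, 229, 31.17 and 227 RPKM and rose by 3.35. BTG2, an antiproliferative factor, was at 35.96, 303, 26.49 and 289.6 RPKM and rose by 2.97, and the exonuclease gene AEN rose by 2.54, from 19.41 to 118 RPKM. The polo-like kinase PLK2 was at 17.52, 92.59, 33.39 and 175 RPKM and rose by 3.25, and the death receptor FAS rose by 2.46, from 2.44 to 17.98 RPKM.

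In the BCL2 family, 4 of 18 genes rose (22.2%) and 1 fell, with a median of 0.13 (0.31 with the length and GC trends removed). The BH3-only genes PMAIP1 and BBC3, which promote apoptosis, rose by 2.40 and 1.68, from 1.71 to 13.28 RPKM and from 9.57 to 32.93 RPKM. The survival gene MCL1 rose by 1.05, from 72.37 to 151 RPKM, and the proapoptotic BAX by 1.00, from 46.49 to 94.31 RPKM, and both were under 2-fold, at 0.92 and 0.88, without ribosomal protein genes in the scaling. BOK fell by 1.42, from 12.07 to 3.87 RPKM (-0.76 with those trends removed).

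Immediate early genes were mixed. Of 34 compared, 13 rose (38.2%), 2 fell (5.88%) and 19 stayed within 2-fold in the combined library. The median was 0.52 (0.85 with the length and GC trends removed). It was 1.16 with AIL alone and -0.37 with AR1-651 alone, where all genes had medians of -0.04 and -0.32. JUN, an AP-1 subunit, was at 35.65, 367, 37.97 and 346 RPKM and rose by 3.24. ATF3, a stress-induced bZIP factor, was at 7.08, 145, 13.79 and 159.5 RPKM and rose by 4.31. FOS rose by 2.79, from 0.73 to 10.95 RPKM, and the zinc finger factor KLF6 by 3.07, from 1.71 to 21.8 RPKM. Against the AIL library directly, 0 of the 34 were higher and 4 lower, with a median of -0.48.

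NF-kappaB targets were the list with 10 of 19 higher (52.6%) and 0 lower, and its median was 1.00, or 0.93 without the gene listed at 0 in the empty vector library. CCL20, a chemokine, was at 4.27, 51.84, 6.76 and 87.55 RPKM and rose by 4.07, and CXCL8, which encodes interleukin 8, was at 0.92, 10.91, 1.8 and 27.53 RPKM and rose by 3.89. BIRC3, an inhibitor of apoptosis, was at 1.68, 10.16, 1.09 and 24.42 RPKM and rose by 3.25. CCL20, CXCL8 and BIRC3 had the highest value of the 4 in the combined library, but were named for their large rise there. Against the AIL library, the 19 targets had a median of -0.12. TNFAIP3, which restrains NF-kappaB, rose by 2.50, from 0.66 to 8.36 RPKM.

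Interferon-stimulated genes moved less as a group, with 4 of 25 higher (16.0%), 2 lower (8%) and a median of 0.46 (0.24 with the length and GC trends removed). IFIT2 rose by 3.0, from 1.45 to 18.66 RPKM, OASL by 2.32, from 2.15 to 14.73 RPKM, and IFI44 by 2.08, from 0.79 to 6.56 RPKM (1.33 with the trends removed). IFI6 and STAT2 each fell by 1.28, from 35.09 to 13.86 RPKM and from 19.02 to 7.25 RPKM. The share that rose was close to the 13.0% of all genes.

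Genes of the unfolded protein response were within 2-fold or lower, and theirs is a list in which AR1-651 alone and the combined library stood on opposite sides of baseline. The 250 bases before the start of 3 of its genes are shown, from RefSeq on GRCh38.p14, because the list is known for promoters with CCAAT boxes. They lie at chr9:125241344-125241593 (minus strand) for HSPA5, chr7:149028491-149028740 (minus) for PDIA4 and chr16:56931892-56932141 (plus) for HERPUD1, with CCAAT on either strand in capitals.
HSPA5: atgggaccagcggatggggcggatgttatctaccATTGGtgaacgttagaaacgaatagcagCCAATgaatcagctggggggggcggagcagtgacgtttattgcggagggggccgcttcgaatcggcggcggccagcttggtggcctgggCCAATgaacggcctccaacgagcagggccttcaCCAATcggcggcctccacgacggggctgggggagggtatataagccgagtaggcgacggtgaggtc
PDIA4: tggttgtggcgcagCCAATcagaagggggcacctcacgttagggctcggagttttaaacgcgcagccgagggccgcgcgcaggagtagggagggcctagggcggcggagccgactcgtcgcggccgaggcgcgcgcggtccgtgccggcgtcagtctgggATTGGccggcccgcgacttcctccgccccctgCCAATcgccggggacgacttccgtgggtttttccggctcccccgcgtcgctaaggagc
HERPUD1: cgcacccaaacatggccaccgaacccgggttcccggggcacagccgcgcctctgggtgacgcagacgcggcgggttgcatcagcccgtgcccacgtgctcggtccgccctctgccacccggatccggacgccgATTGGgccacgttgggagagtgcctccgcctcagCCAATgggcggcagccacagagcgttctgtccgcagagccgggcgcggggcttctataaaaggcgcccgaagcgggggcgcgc
HSPA5 held 4 matches, PDIA4 3 and HERPUD1 2. In the same 250 bases, 35.7% of the promoters of compared genes held at least 1 match, 13.3% at least 2, 4.78% at least 3 and 1.59% at least 4.

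HSPA5, the main HSP70 of the endoplasmic reticulum, was at 268, 84.71, 428 and 77.6 RPKM and fell by 1.78. The disulfide isomerase PDIA4 was at 135, 28.0, 346 and 31.51 RPKM and fell by 2.07. HERPUD1, which serves degradation of misfolded proteins, was at 50.35, 17, 73.54 and 15.52 RPKM and fell by 1.64. All 3 had their highest value with AR1-651 alone and their lowest values in the 2 AIL-treated libraries. SYVN1, the ubiquitin ligase of the same pathway, fell by 2.08, from 20.3 to 4.03 RPKM, and WFS1, of the same membrane, fell by 1.74, from 30.37 to 8.41 RPKM (-0.97 with the length and GC trends removed). Of the 26 genes 0 rose and 10 fell (38.5%), with a median of -0.79. The medians were -0.76 with AIL alone and 0.41 with AR1-651 alone. Of the 26, 16 were at least 2-fold lower in the combined library than in the AR1-651 library, beside 5.74% of all genes.

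The integrated stress response split. ATF4, its central transcription factor, was at 171, 703, 272 and 727 RPKM and rose by 2.08, and ATF3 rose as given above. Among the genes that fell, SLC7A11, the cystine transporter, was at 12.87, 1.61, 8.2 and 2.77 RPKM and fell by 1.88. The arginine transporter SLC7A1 fell by 2.56, from 25.37 to 3.46 RPKM, and the glutathione-degrading enzyme CHAC1 fell by 2.08, from 5.14 to 0.45 RPKM. In all, 7 of 27 genes rose (25.9%), 7 fell and 13 stayed within 2-fold, with a median of -0.21. With the length and GC trends removed, 10 of 26 were higher and 3 lower, and the median was 0.01.

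Genes of the NRF2 antioxidant response were lower or within 2-fold, with 0 of 21 higher, 8 lower (38.1%) and a median of -0.39. The ferritin subunit genes FTH1 and FTL fell, with differences of -1.5 and -1.49, FTH1 being at 1694, 761, 1262 and 597 RPKM and FTL at 393, 164, 356 and 139 RPKM. The transporter ABCC1 fell by 1.47, from 7.28 to 1.98 RPKM (-0.72 with the length and GC trends removed).

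**Figure D3:**
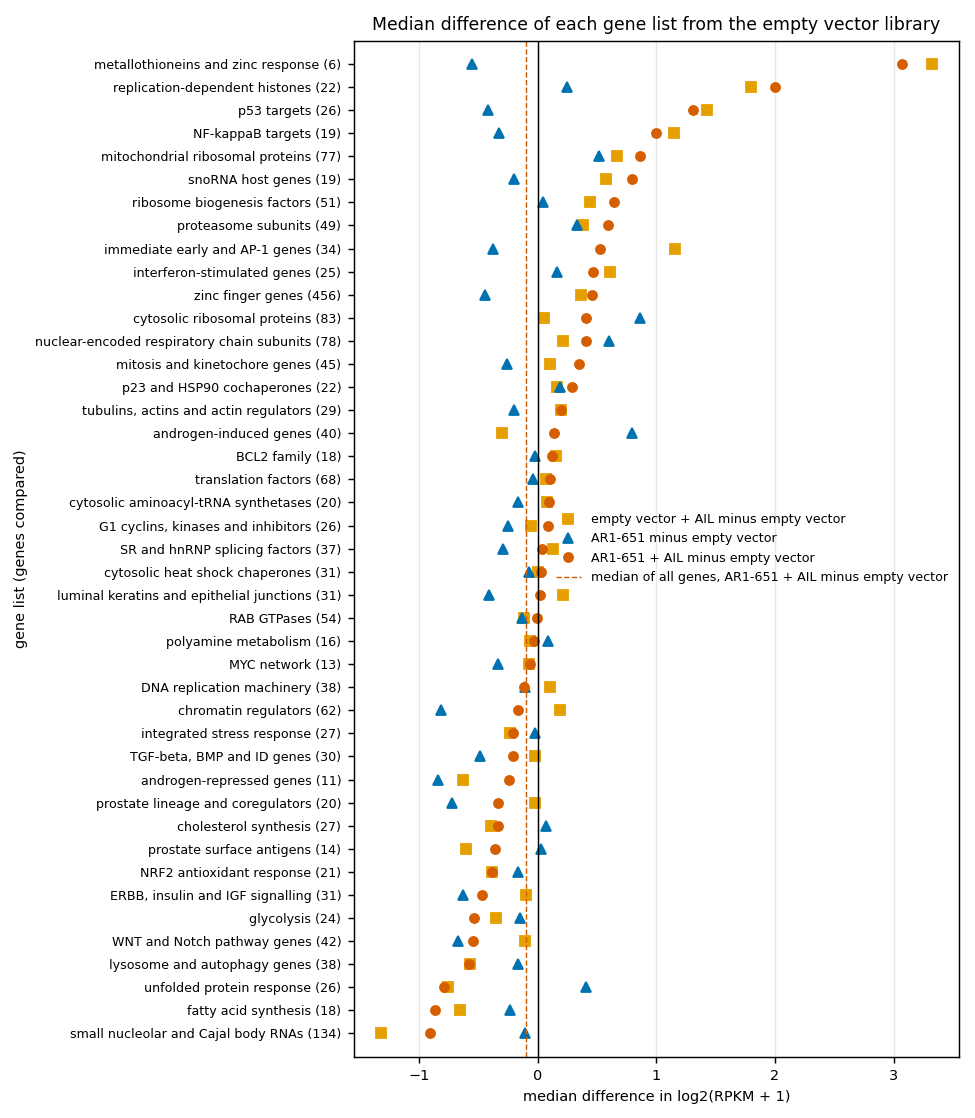
Median difference in log2(RPKM + 1) from the empty vector library for 43 gene lists, with the number of genes compared in brackets: circles for AR1-651 + AIL, squares for AIL alone, triangles for AR1-651 alone. The dashed line is the median of all genes, -0.10. The 3 medians share the empty vector library, and the androgen-induced genes have the triangle at 0.80 and the circle at 0.14.

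Most replication-dependent histone genes rose. Of 22 compared, 18 rose (81.8%) and 0 fell, with a median of 2.0, or 1.86 without the 2 genes listed at 0 in the empty vector library. H4C8 was at 24.59, 126, 26.27 and 166 RPKM and rose by 2.71, and H3C4 was at 4.15, 45.98, 6.0 and 63.4 RPKM and rose by 3.64. The linker histone H1-4 was at 0.77, 19.32, 1.42 and 20.22 RPKM and rose by 3.58. H2BC11 and H2AC11 rose by 2.79 and 2.60, from 1.98 to 19.55 RPKM and from 3.77 to 27.93 RPKM. Histone genes are near-identical copies, so how reads were split among them is uncertain, and most of their transcripts lack a poly(A) tail, while the labels name both ribosomal RNA depletion and oligo(dT) beads. The median was 1.80 with AIL alone and 0.25 with AR1-651 alone.

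The other genes of S phase did not follow the histones. Of 38 DNA replication genes 3 rose and 3 fell (7.89% each), with a median of -0.12, and 32 stayed within 2-fold (1 of 36 higher and 2 lower with the length and GC trends removed). The polymerase delta subunits parted, POLD3 rising by 1.92, from 3.09 to 14.47 RPKM, while POLD2 fell by 1.42, from 168 to 61.8 RPKM. Of 45 mitosis and kinetochore genes 5 rose (11.1%) and 3 fell (6.67%), with a median of 0.35 (0.16, with 1 higher and 2 lower, once the trends were removed). FOXM1, the transcription factor that drives many mitotic genes, was at 20.08, 7.71, 8.19 and 3.87 RPKM and fell by 2.11, while HMMR, a spindle protein, rose by 1.52, from 14.59 to 43.8 RPKM, and the kinase gene AURKA by 1.17, from 14.85 to 34.72 RPKM. With the trends removed HMMR and AURKA were under 2-fold, at 0.996 and 0.85.

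Among G1 regulators 6 of 26 rose (23.1%) and 1 fell, with a median of 0.09 that became -0.02 when ribosomal protein genes were left out of the scaling and -0.12 when the trends were removed. CDKN1A, the p21 inhibitor of cyclin-dependent kinases, was at 155, 551, 132 and 361 RPKM and rose by 1.22. CDKN2B, the p15 inhibitor, rose by 1.63, from 2.14 to 8.69 RPKM, and so did CDC25A, a phosphatase that promotes entry into S phase, by 1.29, from 3.2 to 9.26 RPKM. E2F5 rose by 1.95, from 4.31 to 19.58 RPKM, and E2F1 fell by 1.20, from 17.06 to 6.86 RPKM (-0.65 with the trends removed). Inhibitors and activators of the G1 to S step were both among the genes that rose.

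Genes for the machinery of protein synthesis differed by list. Mitochondrial ribosomal proteins had 30 of 77 higher (39.0%) and 0 lower, with a median of 0.86, beside 0.67 with AIL alone and 0.52 with AR1-651 alone. With the length and GC trends removed 22 of the 77 were higher, and the median was 0.67. MRPL2 was at 22.76, 92.71, 40.06 and 116.05 RPKM and rose by 2.30, and MRPS18A and MRPL58 rose by 2.25 and 2.13, from 25.75 to 126 RPKM and from 60.76 to 269 RPKM. Of 83 cytosolic ribosomal protein genes 79 stayed within 2-fold, with a median of 0.41 (0.13 with the length and GC trends removed), whereas the median was 0.86 with AR1-651 alone and 0.06 with AIL alone. RPLP0, a protein of the ribosomal stalk, was at 2034, 1238, 1635 and 958 RPKM and fell by 1.09. RPS27L, a paralogue that p53 induces, was at 112, 224, 240 and 290.3 RPKM and rose by 1.37. It also rose with AIL alone, by 1.00, and with AR1-651 alone, by 1.10.

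Ribosome biogenesis factors had 13 of 51 higher (25.5%) and 3 lower, with a median of 0.65 (11 higher and 1 lower with the trends removed). UTP14A and RRP9, which process the small subunit RNA, rose by 1.89 and 1.81, from 14.67 to 57.16 RPKM and from 31.35 to 113 RPKM. Host genes of small nucleolar RNAs had 9 of 19 higher (47.4%) and 2 lower, with a median of 0.80, and with the length and GC trends removed 5 of 18 were higher and 2 lower, with a median of 0.77. SNHG1 was at 28.7, 119, 27.98 and 158 RPKM and rose by 2.42, and SNHG15 and SNHG7 rose by 2.14 and 2.11, from 20.51 to 94.13 RPKM and from 20.27 to 90.82 RPKM. Transcripts of these hosts carry short or no reading frames. The small nucleolar and Cajal body RNAs themselves had 30 of 134 higher (22.4%) and 65 lower (48.5%), but 77 of the 134 were listed at 0 in 1 of the 2 libraries, and without these 9 of 57 were higher and 9 lower, with a median of -0.13.

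For translation factors 11 of 68 rose (16.2%) and 7 fell (10.3%), with a median of 0.11 that became -0.02 without ribosomal protein genes in the scaling and -0.05, with 6 of 67 higher and 7 lower, once the trends were removed. EIF6, which keeps ribosomal subunits apart, rose by 1.71, from 108 to 356 RPKM, and EIF2S1, the alpha subunit of eIF2, by 1.61, from 29.73 to 92.93 RPKM. EIF2AK3, the kinase PERK, fell by 1.73, from 12.57 to 3.09 RPKM, and EIF4EBP2, a repressor of cap-dependent translation, fell by 1.93, from 23.28 to 5.35 RPKM. Cytosolic aminoacyl-tRNA synthetases had 2 of 20 higher and 5 lower, with a median of 0.09 (-0.03 without ribosomal protein genes in the scaling and -0.02, with 3 lower, once the trends were removed). GARS1 and IARS1 fell, with differences of -1.42 and -1.28, from 40.68 to 14.54 RPKM and from 27.3 to 10.62 RPKM.

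The proteasome list had 13 of 49 higher (26.5%) and 1 lower, with a median of 0.59 (0.29 with the trends removed), beside 0.38 with AIL alone and 0.33 with AR1-651 alone. The list and the 13 include PSMC3IP, which rose by 1.63 but is a recombination factor and not a proteasome gene. PSMD7, a subunit of the regulatory particle, was at 76.15, 233, 155 and 294 RPKM and rose by 1.93, and the assembly factor genes PSMG1 and PSMG3 rose by 1.53 and 1.38, from 28.72 to 84.68 RPKM and from 42.18 to 111 RPKM. SR and hnRNP splicing factors stayed near baseline, with 33 of 37 within 2-fold and a median of 0.04 (-0.09 without ribosomal protein genes in the scaling). CLK1 and CLK4, kinases that phosphorylate SR proteins and are counted among the 37, did not. CLK1 was at 18.63, 121, 23.08 and 196 RPKM and CLK4 at 8.24, 24.66, 4.57 and 40.68 RPKM, which are rises of 3.33 and 2.17.

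Zinc finger genes formed the largest list and leaned upward, with 107 of 456 higher (23.5%), 12 lower (2.63%) and a median of 0.45. Their median was 0.37 with AIL alone and -0.44 with AR1-651 alone, where all genes had medians of -0.04 and -0.32. Of the 456, 188 were higher and 1 lower in the combined library than in the AR1-651 library, beside 14.9% and 5.74% of all genes. ZNF222 was at 1.58, 10.1, 3.4 and 19.02 RPKM and rose by 2.96, and ZNF181 rose by 2.41, from 5.71 to 34.66 RPKM.

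Fatty acid synthesis genes were lower or within 2-fold, with 0 of 18 higher and 7 lower (38.9%) and a median of -0.87 (-0.48 with the trends removed). FASN, the fatty acid synthase, was at 185, 80.68, 142 and 37.34 RPKM and fell by 2.28 (-1.11 with the trends removed). The desaturases FADS2 and SCD fell, with differences of -2.23 and -2.19, from 96.77 to 19.9 RPKM and from 96.38 to 20.33 RPKM. FASN, FADS2 and SCD each had their lowest value of the 4 in the combined library, but were named for their large fall there. Against the AIL library, the median of the 18 genes was -0.23.

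Cholesterol synthesis and its control had 9 of 27 lower (33.3%) and 3 higher (11.1%), with a median of -0.34 (10 lower, 1 higher and -0.49 with the trends removed). INSIG1, the sterol sensor that retains SCAP, was at 55.13, 8.27, 49.1 and 5.6 RPKM and fell by 3.09. The lanosterol synthase LSS fell by 2.56, from 34.52 to 5.02 RPKM. SREBF1, the master factor of lipogenic genes, was at 79.56, 46.12, 35.79 and 19.11 RPKM and fell by 2.0 (-1.06 with the trends removed). SREBF1 and FASN were thus lower in each of the 3 other libraries than in the empty vector library.

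In glycolysis 0 of 24 genes rose and 5 fell (20.8%), with a median of -0.54 (-0.30, with 3 lower, once the trends were removed). HK2, a hexokinase, fell by 2.05, from 5.25 to 0.51 RPKM, and the aldolase ALDOA fell by 1.31, from 717 to 289 RPKM. GAPDH was at 1854, 1685, 1840.2 and 1487 RPKM, a difference of -0.32. Of 78 nuclear-encoded respiratory chain subunits 72 stayed within 2-fold, with 6 higher (7.69%, under the 13.0% of all genes), 0 lower and a median of 0.40, beside 0.60 with AR1-651 alone. With the trends removed 1 of 77 was higher and the median was 0.22. NDUFA6, of complex I, was at 57.69, 108, 143 and 139 RPKM and rose by 1.25.

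Lysosome and autophagy genes had 11 of 38 lower (28.9%) and 1 higher, with a median of -0.58. The protease gene CTSD was at 216, 87.06, 118 and 45.79 RPKM and fell by 2.21, and CTSA fell by 2.01, from 26.42 to 5.82 RPKM. ATG9A, a membrane protein of the autophagosome, fell by 2.18, from 21.95 to 4.06 RPKM. The kinase ULK1, which starts autophagy, fell by 1.81, from 21.73 to 5.49 RPKM (-0.77 with the trends removed). Polyamine genes, by contrast, had 14 of 16 within 2-fold and a median of -0.03, which was positive under median-ratio scaling and 0.04 with the trends removed.

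Among growth factor signalling genes the median depended on the trends. Of 31 ERBB, insulin and IGF genes 10 fell (32.3%) and 6 rose (19.4%), with a median of -0.47, and with the trends removed 6 were lower and 2 higher, with a median of -0.02. IGF2R, the receptor that clears IGF2, was at 37.33, 5.74, 21.39 and 3.8 RPKM and fell by 3.0. PIK3R2 and AKT2, of the PI3K pathway, fell, with differences of -2.92 and -2.26, from 78.44 to 9.5 RPKM and from 40.96 to 7.78 RPKM. ERBB2 was at 64.23, 32.46, 26.0 and 15.27 RPKM and fell by 2.0 (-1.17 with the trends removed), while the ligand HBEGF rose by 1.89, from 3.13 to 14.31 RPKM.

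For WNT and Notch genes 10 of 42 fell (23.8%) and 3 rose, with a median of -0.54 (-0.24, with 5 lower and 5 higher, once the trends were removed), beside -0.67 with AR1-651 alone and -0.11 with AIL alone. LFNG, which glycosylates Notch, was at 29.24, 3.31, 15.47 and 1.28 RPKM and fell by 3.73. The WNT coreceptor LRP5 fell by 2.54, from 31.37 to 4.56 RPKM (-1.55 with the trends removed), and the ligand WNT5A fell by 2.07, from 13.91 to 2.54 RPKM. In all 3 the combined library held the lowest of the 4 values, but they were named for their large fall there. Against the AIL library, the median of the 42 genes was -0.51.

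Of 30 TGF-beta, BMP and ID genes 6 rose (20%) and 5 fell (16.7%), with a median of -0.21 (-0.05, with 5 higher and 2 lower, once the trends were removed). BAMBI, a decoy receptor, was at 15.84, 81.62, 7.02 and 47.2 RPKM and rose by 1.52, and the ligand BMP6 fell by 2.08, from 13.42 to 2.41 RPKM. In the MYC network, where 9 of 13 stayed within 2-fold and 3 fell (1 with the trends removed), MYC was at 63.03, 9.83, 26.53 and 7.86 RPKM and fell by 2.85, and MLX rose by 1.16, from 29.23 to 66.32 RPKM. Chromatin regulators had 13 of 62 lower (21%) and 3 higher, with a median of -0.16. With the trends removed 1 was lower and 2 were higher, and the median turned to 0.29. SMARCA4, the ATPase of a SWI/SNF complex, was at 39.23, 23.48, 16.41 and 12.59 RPKM and fell by 1.57 (-0.60 with the trends removed), and the demethylase KDM3A rose by 1.79, from 10.54 to 38.98 RPKM.

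Genes of epithelial structure moved in both directions. Of 31 genes for luminal keratins and junctions 2 rose, 5 fell and 24 stayed within 2-fold, with a median of 0.02, which was -0.11 without ribosomal protein genes and 0.37 with the trends removed. The latter left 4 of 30 higher and 0 lower. CLDN8, a tight junction claudin, was at 4.21, 15.93, 12.54 and 42.65 RPKM and rose by 3.07, and CDH1, which encodes E-cadherin, fell by 1.33, from 134 to 52.79 RPKM (-0.99 with the trends removed). Among 29 tubulin and actin genes 7 rose and 7 fell (24.1% each), or 6 and 3 with the trends removed. TUBB, a beta tubulin, was at 179, 40.16, 139.7 and 30.97 RPKM and fell by 2.49, and EZR, which links actin to the membrane, was at 50.51, 110.1, 150.2 and 165 RPKM and rose by 1.69. ACTB was at 1086, 1508, 649.7 and 804 RPKM, a difference of -0.43. The 54 RAB genes, with 8 higher and 9 lower, had a median of -0.01 that was positive under median-ratio scaling.

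Among 14 prostate surface antigens 2 rose and 5 fell, with a median of -0.36 (-0.60, with 1 higher and 4 lower, once the trends were removed). STEAP1 was at 139, 206, 241 and 421 RPKM and rose by 1.59 (0.97 with the trends removed), so its highest value was in the combined library. CD276, which encodes B7-H3, was at 37.25, 13.56, 21.58 and 6.77 RPKM and fell by 2.30, and the membrane protease HPN was at 111, 42.01, 81.98 and 28.87 RPKM and fell by 1.91.

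**Figure D4:**
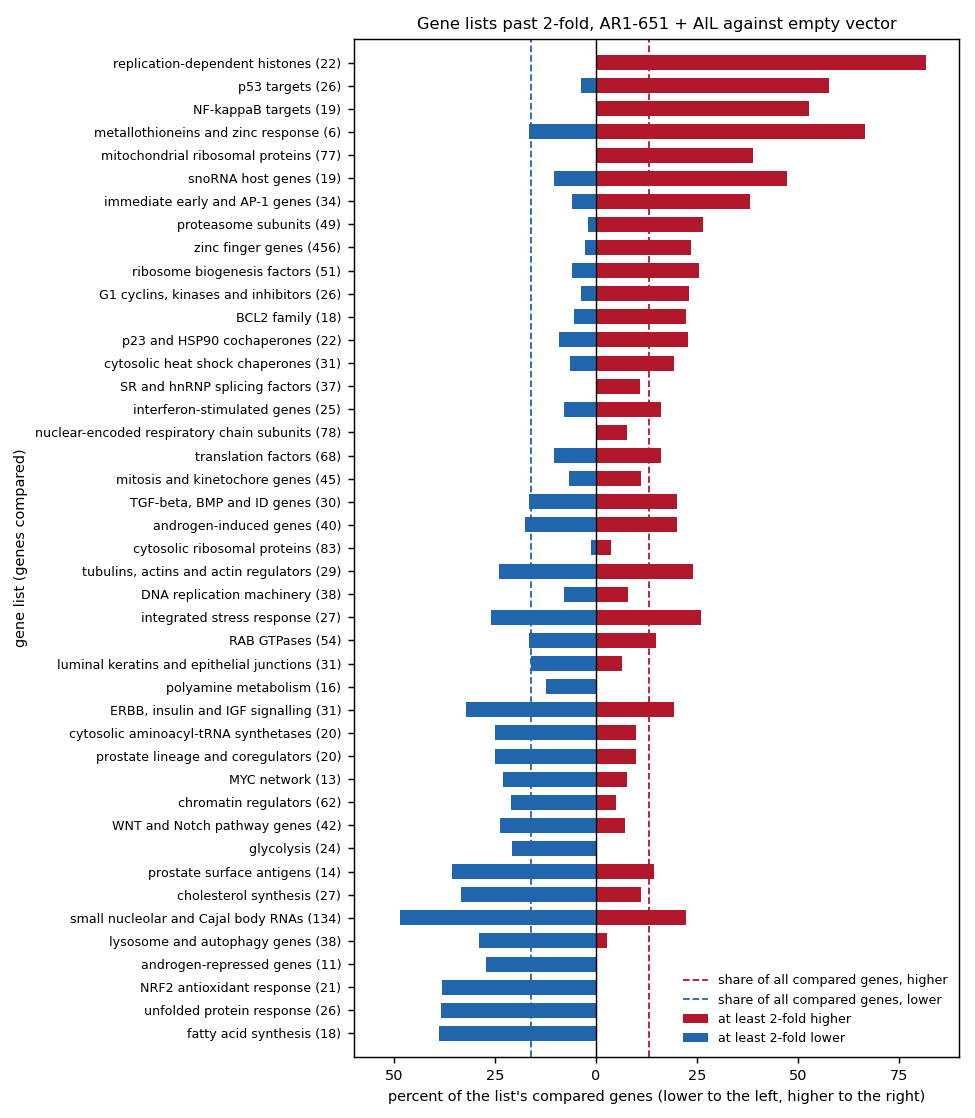
Percent of the compared genes of each of 43 lists that were at least 2-fold higher (right) or lower (left) in the AR1-651 + AIL library than in the empty vector library, with the background of 13.0% and 16.2% as dashed lines. Histones reach 81.8% higher, and fatty acid synthesis, the unfolded protein response and NRF2 genes show bars to the left alone, near 38%.

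The single largest differences belonged in part to these lists. Of the 10 largest rises among genes of at least 5 RPKM, ATF3, CCL20, CXCL8, SLC30A1, MT1F, H3C4 and H1-4 are described above. STX19, a syntaxin, was at 2.5, 63.16, 5.04 and 84.88 RPKM and rose by 4.62, and GADD45G, a relative of GADD45A, was at 68.79, 959, 176 and 923 RPKM and rose by 3.73. FMC1-LUC7L2 rose by 4.29, from 1.03 to 38.81 RPKM, but is a readthrough locus that shares reads with both of its genes. SEZ6L2 and LAMB2 were among the 10 largest falls, at 89.75, 19.98, 39.59 and 8.82 RPKM and at 87.77, 23.1, 36.9 and 9.23 RPKM, which are differences of -3.21 and -3.12. The laminin subunit LAMB2 and DPYSL2, a regulator of microtubules, were lower in all 3 other libraries than in the empty vector library, DPYSL2 being at 16.47, 2.39, 5.17 and 0.97 RPKM. The amino acid transporter SLC7A8 fell by 3.08, from 31.59 to 2.86 RPKM, and MARCKSL1, an actin regulator, fell by 3.05, from 356 to 42.19 RPKM. The pseudogenes GUSBP17 and GTF2IP1 were listed at 0 in the combined library against 30.95 and 10.55 RPKM in the empty vector library, and they share sequence with their parent genes.

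Differences moved with transcript length and base composition over the whole comparison. Among 13650 genes with both values, Spearman's rho of the difference was -0.37 with GC content and -0.16 with length, across genes, which are not independent replicates. The median ran from 0.35 in the sixth of genes lowest in GC to -0.66 in the highest, where 34.1% were lower and 6.20% higher, and from 0.23 in the shortest sixth to -0.33 in the longest. With AIL alone the medians at both ends of GC were -0.01 and -0.11, and with AR1-651 alone -0.41 and -0.49. From the shortest to the longest sixth, the median ran from 0.11 to -0.24 with AIL alone. With AR1-651 alone it ran from 0.17 to -0.72, a wider range than in the combined library. The list medians given for these libraries keep such trends. The part of the combined library's trends in its counts of lower genes was not tested. With the trends removed, several of the list counts above moved by more than 1.5 times, among them those of lower chromatin regulators and of higher respiratory chain and mitosis genes.

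**Figure D5:**
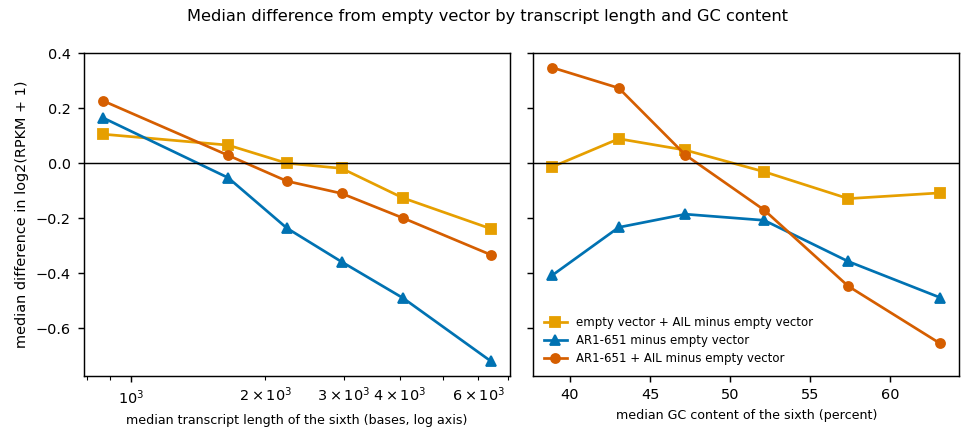
Median difference in log2(RPKM + 1) from the empty vector library in sixths of 13650 genes by transcript length (left, log axis) and GC content (right), for the 3 other libraries. The AR1-651 + AIL line falls from 0.35 to -0.66 across GC content, while the AIL line stays between -0.13 and 0.09.

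Promoters differed in base composition in the same direction. In the RefSeq promoters, from 250 bases before to 50 after the start, median GC content was 65% over 10972 compared genes, 62.7% for those higher and 68.0% for those lower. GGGCGG, the GC box, was present on either strand in 68.6% of compared genes, 61.8% of the 1439 higher and 73.5% of the 1610 lower, and in 44.6% of all 27305 promoters. TATAAA was present in 5.62%, 8.41%, 4.22% and 12.0% of the same sets, and TGACGTCA, the site of CREB and ATF factors, in 3.30%, 4.52%, 3.42% and 1.98%. For TGTTCT, the hexamer marked in KLK3, the shares were 9.09%, 9.80%, 7.89% and 14.9%. The remaining motifs were TGCNCNC with 62.7%, 59.9%, 66.5% and 55.2%, CCAAT with 37.4%, 39.5%, 36.1% and 35.7%, TGANTCA, the AP-1 site, with 4.37%, 4.52%, 4.78% and 7.76%, and CACGTG, the E-box, with 10.1%, 10.2%, 11.1% and 7.43%. A match describes letters in this window and not a bound site.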

How the data were processed

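Total RNA of 4 LNCaP libraries was sequenced, 1 per condition. The labels name both a total RNA kit with ribosomal RNA depletion and enrichment with oligo(dT) beads, and which selection was applied was not settled here. The processing notes name BWA 0.7.10-r789 and hg19, while the counting tool and annotation release were not given in the sources used here. The authors deposited RPKM per gene with 2 decimals, so depth is unknown and no counting interval was formed. Symbols were matched by gene ID for 19703 of 19801 genes, and length and GC content came from GENCODE transcripts for 13650 compared genes. Differences were log2(RPKM + 1), with a 2-fold threshold and no test (Python 3.11.15, NumPy 2.4.6, pandas 2.3.3). Named genes were PTGES3, KLK3, FKBP5, ACTB and GAPDH, the 10 largest rises and falls of at least 5 RPKM (small RNAs left out), and up to 5 members per list past 2-fold at that level. From these the text takes those that describe each list, and it says where a gene was added after its values were seen. The check of the transfected gene itself and some named genes are not reported here. Promoters came from RefSeq, GRCh38.p14 (10972 genes matched by symbol or ID), and both strands were searched. The members, lists and tests were chosen with earlier results of these data known, and the direct comparisons with the AIL and AR1-651 libraries were added after the values were seen. Alternatives were a pseudocount of 0.1, median-ratio scaling, scaling without ribosomal protein genes, removal of length and GC trends (polynomial of degree 3 in ranks), other filters and other fold thresholds. The script was tested on simulated data.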

Additional observations from a re-analysis of the deposited data

How the results depend on the processing

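The counts of 1849 genes higher and 2304 lower became 3461 and 4244 at a 1.5-fold threshold and 239 and 337 at a 4-fold threshold. With the length and GC trends removed, 1457 genes were lower, and 1565 were higher. Scaling without ribosomal protein genes moved the median of all genes from -0.10 to -0.20. That scaling gave 1499 genes higher and 2717 lower, and median-ratio scaling gave 1966 and 2154. Of 223 named genes, 218 were past 2-fold, and pseudocount 0.1 and median-ratio scaling took 0 of them back under it. Scaling without ribosomal protein genes took 8, and removing the trends took 44 of 214 and turned EVPL from -1.09 to 0.0315. Besides the changes of sign given in the report, list medians changed sign for RAB genes without a filter, and for DNA replication, TGF-beta, MYC network and RAB genes at 5 RPKM. No paired analysis was possible because each condition has 1 library, which also leaves the error of every value unknown.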

Other observations

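Gene classes differed in how often they were past 2-fold, a split looked at after the values were seen. Protein-coding genes had 13.4% of 12149 higher and 15.1% lower. Long non-coding RNAs had 8.87% of 1297 higher and 16.4% lower, and transcribed pseudogenes 7.59% of 395 and 16.2%. Loci of microRNAs had 21.6% of 139 higher and 62.6% lower. Genes listed without signal in a library were kept in these shares. For the small nucleolar RNAs above, leaving such genes out made the higher and lower counts equal. For microRNA loci this was not tested, so their shares are not read as a rise or a fall.

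By chromosome, also looked at after the values were seen, the share of genes lower was 25.1% of 370 on chromosome 22, 22.8% of 674 on chromosome 16 and 6.40% of 203 on chromosome 18, where the median GC contents were 56.9%, 56.5% and 44.3%. Genes on chromosome 6 had 19.5% of 719 higher. On the X chromosome, 6.35% of 488 genes were higher and 18.9% lower, with a median of -0.21 that was -0.22 with the length and GC trends removed.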
